A study of Mus musculus with 4 samples.

Results

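The cells described here are Cebpe-positive, neutro-biased granulocyte-monocyte progenitors (GMP) of mouse bone marrow, measured by single-cell RNA sequencing. They were chosen by 2 genes of the same counts, with at least 2 unique molecular identifiers (UMIs, each 1 captured RNA molecule) of Cebpe and at most 1 UMI of Ly86 in a cell of the GMP sort. The rule took 382 of 1258 cells of the control library (30.4%, 27.8% to 33.0%) and 723 of 2719 cells of the Tet2 KO library (26.6%, 24.9% to 28.3%). That is 1105 members among 3977 cells of the GMP sort and 8969 cells in all 4 libraries.

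The deposited RNA data hold 1 library for each of the 2 genotypes and 2 sorts, the GMP sort (Lin- cKit+ Sca1- CD34+ CD16/32+) and a sort of Lin- progenitors with CD11b+ cells, and the cell table names 1 mouse per genotype for both sorts. The Tet2 KO mouse carried Mx1-Cre and Tet2 fl/fl, and the control was a Tet2 fl/fl littermate with no Mx1-Cre. Both received 4 intraperitoneal doses of pI:pC at 12.5 µg/g, an agent that raises interferon and so switches on the Mx1 promoter, which is not restricted to blood cells. The control has therefore also seen pI:pC, and carries the floxed allele unrecombined. The study's own list of cell numbers gives the sizes of the Tet2 KO GMP library and of the control library of the other sort the other way around, and the deposited assignment was used. Each group has 1 library, so genotype, mouse and preparation cannot be told apart, and no test between genotypes was made.

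GMP divide into a granulocytic and a monocytic branch. Cebpe encodes C/EBP epsilon, the transcription factor that carries a granulocytic precursor from making the early (primary or azurophil) granules to making the later (secondary and tertiary) ones, and Ly86 encodes MD-1, the partner of the Toll-like receptor homologue RP105, which is made in the monocytic branch. Primary granules hold proteases and myeloperoxidase and are filled at the promyelocyte stage, before the nucleus matures. Tet2 encodes an enzyme that oxidises methylated cytosine in DNA, and its loss in blood progenitors is known for clonal growth of myeloid cells.

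Members had a median of 19661 UMIs and 3478 genes per cell in control and of 15100 UMIs and 2962 genes in Tet2 KO. Their summed counts were 7572927 and 11212370 UMIs, and 13513 and 13881 of the 18695 genes had a UMI. The whole libraries held 22890469 and 42561110 UMIs, with medians of 18713 and 15488 per cell. Levels are CPM, the UMIs of a gene summed over a group of cells and scaled so that all genes of the group add up to 1000000. Intervals are at 95% and reflect counting error alone, exact binomial for shares of cells, exact Poisson for CPM and exact conditional binomial for ratios. The median mitochondrial share of a member was 2.38% in control and 2.40% in Tet2 KO. The 2 GMP libraries shared 6 cell barcodes, other pairs of libraries shared between 4 and 8, and the members of the 2 libraries shared 1.

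The threshold on Cebpe cuts through cells that are near it. Cebpe stood at exactly 2 UMIs in 77 control and 237 Tet2 KO members, and at 1 UMI in 88 and 325 cells with at most 1 Ly86 UMI, which were not taken. Another 237 and 668 such cells had no Cebpe UMI. On the side of Ly86, 24 and 72 members had 1 UMI, while 14 and 31 cells with at least 2 Cebpe UMIs had exactly 2 of Ly86 and were not taken. The median member had 5 Cebpe UMIs in control and 3 in Tet2 KO. Control was also the deeper library, and the part of depth in this was not tested. With every cell thinned to 5000 UMIs, the rule took 148 control cells (11.8%, 10.04% to 13.7%) and 294 Tet2 KO cells (10.8%, 9.67% to 12.04%).

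Members are set beside 3 other groups of the same sort. Ly86-positive cells, with at least 2 Ly86 and at most 1 Cebpe UMI, numbered 500 in control and 904 in Tet2 KO, with median depths of 19128 and 16945 UMIs. Cells low in both genes numbered 325 and 993, with median depths of 14071 and 14063 UMIs, and cells with at least 2 UMIs of both numbered 51 and 99. In the other sort, the same rule together with at least 10 UMIs of Mpo gave 155 control and 173 Tet2 KO cells.

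The markers of the label were read in members, and all were present. The rule fixes Cebpe, and members were chosen with earlier results of these data known. The levels of the other markers are thus a description and no independent check of the label. Gstm1, a glutathione transferase, was at 690.5 (672 to 709) CPM in control members and 622 (607 to 637) in Tet2 KO members, against 352 and 296 in Ly86-positive cells. Elane, neutrophil elastase, was at 10730.2 (10656 to 10804) and 11182 (11119.9 to 11244) CPM in members, against 4666 and 5116. Both genes were thus higher in members of either library. Prss57, a serine protease of the azurophil granule, was at 364 (351 to 378) and 299 (289 to 309) CPM against 86.7 and 85.3. Ms4a3, a membrane protein typical of granulocyte-monocyte progenitors and a regulator of their cell cycle, was at 2076 (2043 to 2109) and 2113 (2086 to 2140.0) CPM against 641 and 969. All 4 markers that the rule did not use stood higher in members than in Ly86-positive cells in both libraries, with log2 ratios of 0.97 and 1.07 for Gstm1, 1.20 and 1.13 for Elane, 2.07 and 1.81 for Prss57, and 1.70 and 1.12 for Ms4a3, control first.

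The genes that chose the cells are at 273 (261 to 285) and 259 (249.6 to 269) CPM for Cebpe in members against 10.4 and 12.7 in Ly86-positive cells, and at 3.17 and 6.42 CPM for Ly86 against 286 and 254, which the rule fixes. In GRCm38 (mm10) and the GENCODE vM21 annotation, Cebpe lies at chr14:54710360-54712174 on the minus strand, Ly86 at chr13:37345208-37419036 on the plus strand, Gstm1 at chr3:108012255-108017973 on the minus strand and Ms4a3 at chr19:11629496-11640851 on the minus strand. Prss57 at chr10:79781474-79790961 (minus), Prtn3 at chr10:79874476-79883174 (plus) and Elane at chr10:79886247-79888215 (plus) sit together in 1 cluster of azurophil protease genes.

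RNA of the sort antigens was read as a check of the gate. Kit, the stem cell factor receptor, was at 38.8 CPM in control and 38.7 in Tet2 KO members, and Cd34 at 87.2 and 71.3. Fcgr3, which encodes CD16, was at 174 and 179.5 CPM. Ly6a, which encodes Sca1 and was gated out, was at 2.38 and 3.03 CPM, and Itgam, the CD11b gene of more mature cells, at 7.79 and 6.96. Kit, Cd34 and Fcgr3 were thus present and Ly6a near 0. Tet2 itself was at 9.90 (7.79 to 12.4) CPM in control and 14.8 (12.6 to 17.2) in Tet2 KO members, and since UMIs come from the 3′ end of a transcript they do not check the deletion.

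**Figure D1:**
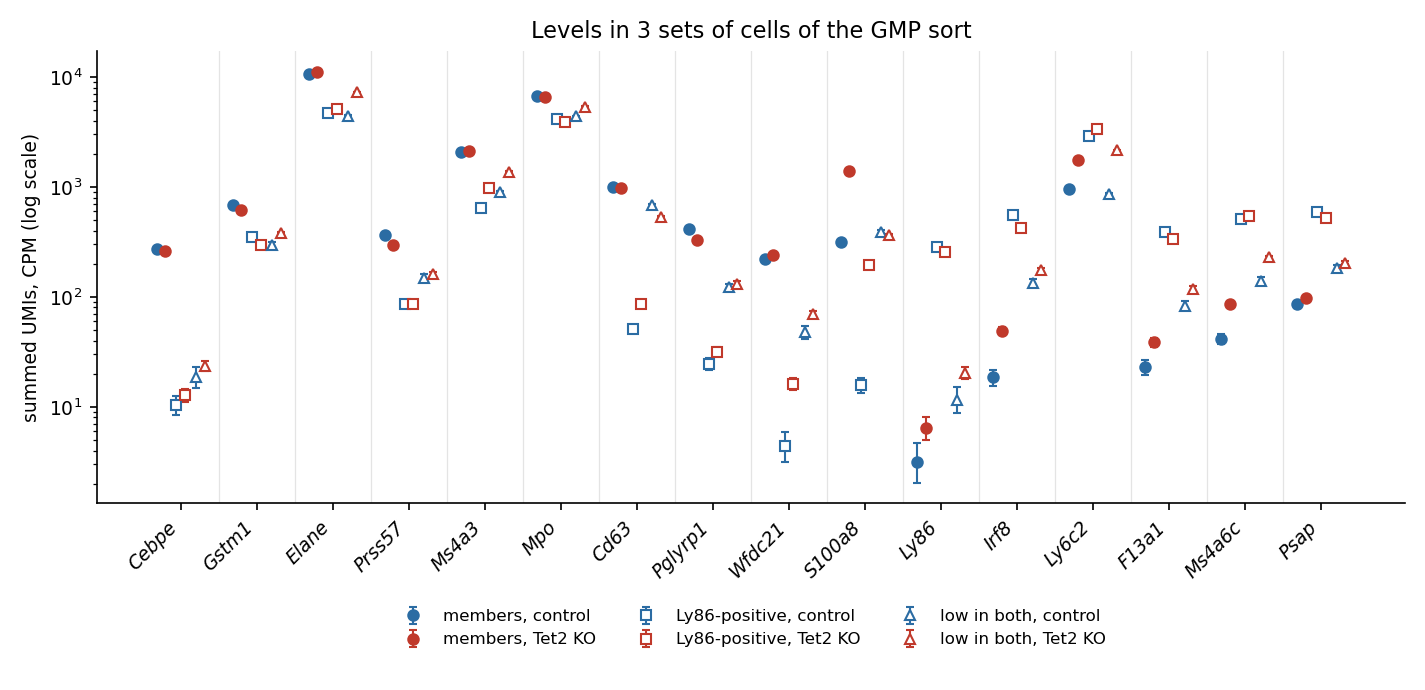
CPM (log axis) of 16 genes in members (filled circles), Ly86-positive cells (open squares) and cells low in both genes (open triangles) of the GMP sort, control in blue and Tet2 KO in red, with 95% Poisson intervals as bars. Granulocytic genes stand higher in members than in Ly86-positive cells, as Cd63 at 1006 and 968 CPM against 51.0 and 85.5. Monocytic genes stand lower in that comparison, and Cebpe and Ly86 chose the cells. Against cells low in both genes this does not hold for each gene. In control, S100a8 is at 313 CPM in members and 387 in those cells, and Ly6c2 at 954 and 861.

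Members were compared with Ly86-positive cells of the same library to see which genes part the granulocytic from the monocytic branch. In both libraries, members had more RNA of many granule proteins, and far less of MHC class II genes, of monocytic regulators and of the S100a4, S100a6 and Lgals3 genes. The direction held in both libraries for every gene called in both. Because the cells were chosen on 2 genes of these counts, and share a library, the comparison is a description.

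A gene counted as higher or lower if its summed levels differed more than 1.5-fold after an offset of 1 CPM, among genes with a mean of at least 10 CPM over the 2 groups. In control, 372 of 6115 genes were higher in members (6.08%) and 500 lower (8.18%), with a median log2 ratio over all genes of -0.00031. In Tet2 KO, 283 of 5963 genes were higher (4.75%) and 407 lower (6.83%), with a median of -0.055. Of 5859 genes that could be called in both libraries, 221 were higher in both (3.77%), 318 lower in both (5.43%) and 0 opposite. The offset ratio sets the calls and the order, and the log2 ratios printed for single genes are of CPM without it, control first and Tet2 KO second.

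Of the 12 genes highest in members in both libraries, several belong to granules and their membranes. Cd63, a tetraspanin of azurophil granule membranes, stood at log2 ratios of 4.30 (4.17 to 4.44) and 3.50 (3.42 to 3.58). Pglyrp1, a peptidoglycan-binding protein of the granules, was at 411 and 327 CPM against 24.6 and 31.7, ratios of 4.06 (3.87 to 4.26) and 3.37 (3.23 to 3.51). Wfdc21, a small whey acidic protein, was at 222 and 239 CPM against 4.40 and 16.004. S100a8 and S100a9 encode the subunits of calprotectin, the calcium-binding protein that fills the cytosol of neutrophils. S100a8 was at 313 and 1399 CPM in members against 15.7 and 195, and S100a9 at 37.1 and 126 against 1.47 and 5.72. Within each library both genes were higher in members, while the level of S100a8 in Ly86-positive cells also differed between the libraries. Vamp5 and Vat1, which encode proteins of vesicle membranes, stood at 2.80 and 2.74 and at 3.101 and 2.75. Sept1, a septin of the cytoskeleton, stood at 3.21 and 3.49, and Myl10, a myosin light chain, at 2.93 and 3.06. Prg2 and Cpa3, which are also among the 12, are genes of eosinophils, basophils and mast cells and are described further on.

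The 12 lowest genes include several of antigen presentation and of monocytes. Cd74, the invariant chain of MHC class II, was at 0.924 and 1.16 CPM against 169 and 84.5, ratios of -7.52 (-8.83 to -6.47) and -6.19 (-7.10 to -5.41). H2-Eb1, a class II beta chain, had 1 UMI in control and 4 in Tet2 KO members, with ratios of -8.74 (-14.05 to -6.26) and -6.20 (-8.09 to -4.84). Aif1, an actin-binding protein of macrophages, had 1 and 13 UMIs, with ratios of -8.26 (-13.57 to -5.77) and -5.57 (-6.49 to -4.79). These 3 genes were thus close to absent from members. Ctss, the protease that trims the invariant chain, stood at -6.75 (-8.20 to -5.62) and -4.28 (-4.72 to -3.86), and Ms4a4c, a tetraspan membrane protein of monocytes, at -6.59 (-9.65 to -4.72) and -4.50 (-5.22 to -3.86) on 2 and 20 UMIs. Lgals3, the lectin galectin-3, was at 3.17 and 11.5 CPM against 191 and 223. S100a4 was at 2.24 and 4.46 CPM against 65.3 and 128, and S100a6 at 5.41 and 10.8 against 146 and 225. These calcium-binding proteins are relatives of S100a8 and S100a9 and stood on the opposite side of the comparison. Prdx4, a peroxiredoxin of the endoplasmic reticulum, was at 7.53 and 7.22 CPM against 141 and 104. Trem2, a lipid-sensing receptor, stood at -5.51 and -4.31, Pld4, a phospholipase D family member, at -4.48 and -3.91, and Ahnak, a large scaffold protein, at -5.70 (-7.99 to -4.14) and -4.87 (-6.01 to -3.92) on 3 and 9 UMIs.

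**Figure D2:**
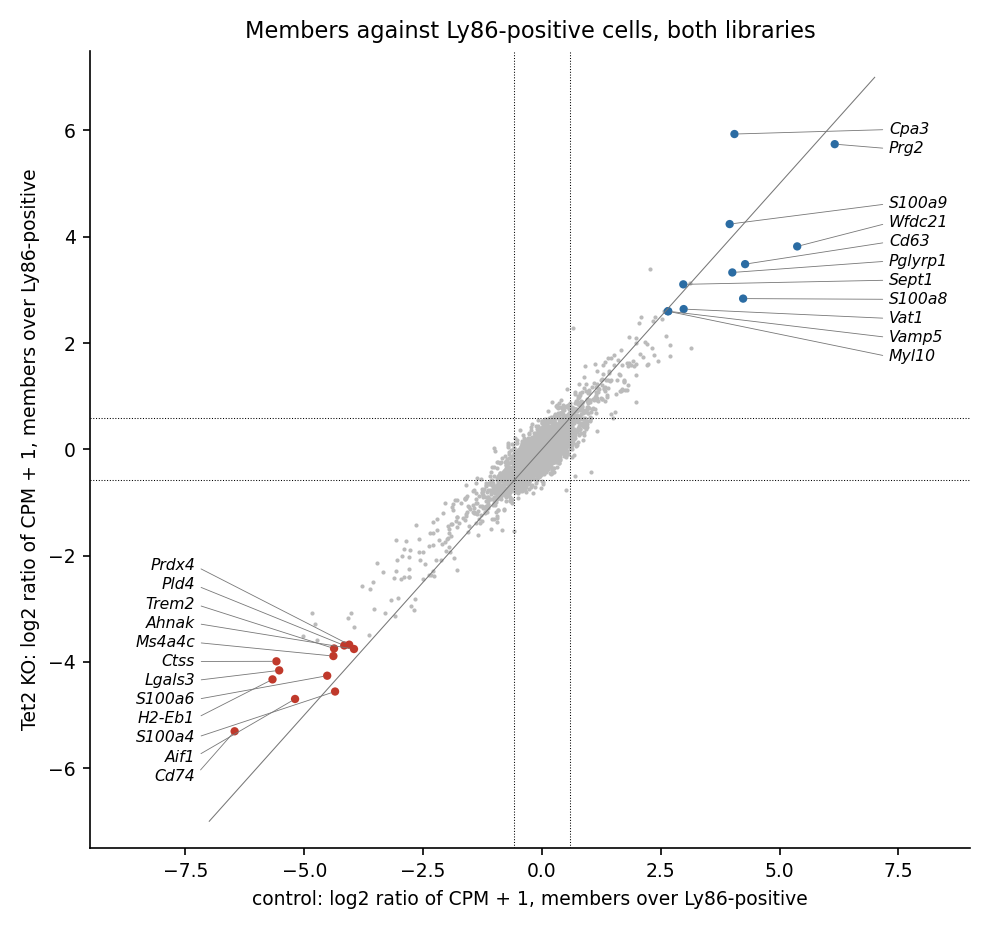
Log2 ratio of CPM + 1, members over Ly86-positive cells, in control (x axis) and Tet2 KO (y axis) for each gene that could be called in both libraries, with genes among the 12 highest (blue) and 12 lowest (red) named, dotted lines at 1.5-fold and a diagonal of equal ratios. The 221 genes higher in both libraries and the 318 lower in both lie in opposite corners, and 0 genes lie past 1.5-fold in opposite directions.

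Primary granule genes were mostly higher in members, with exceptions. Of 16 genes of the list, 13 could be called in control, where 9 were higher and 2 lower in members, with a median log2 ratio of 0.997. In Tet2 KO it was 9 higher and 2 lower of 13, with a median of 0.77. The summed level of the list was 37708 CPM in control and 37093 in Tet2 KO members, against 20763 and 22064 in Ly86-positive cells.

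Ctsg, cathepsin G, was at 6087 and 5724 CPM in members against 3049.7 and 3348, and Mpo, myeloperoxidase, at 6660.0 and 6585 against 4121 and 3883. Prtn3, proteinase 3, was at 6557 and 6217 CPM against 5075 and 5238, log2 ratios of 0.37 and 0.25 that stayed within 1.5-fold. The proteases of 1 granule thus differed unequally between the branches. Srgn, serglycin, the proteoglycan that packs granule proteases, was at 2244 and 2111 CPM against 727 and 785. Serpinb1a, an inhibitor of these proteases, stood at 1.31 and 1.16, and Cst7, an inhibitor of lysosomal cysteine proteases, at 1.14 and 1.03. The 2 genes on the other side were Ctsc and Lyz2. Ctsc, the protease that activates elastase, cathepsin G and proteinase 3, was at 29.1 and 34.6 CPM in members against 103 and 171, ratios of -1.83 (-2.05 to -1.62) and -2.30 (-2.46 to -2.15). Lyz2, lysozyme M, was at 119.6 and 163 CPM against 682 and 897. Lyz1, its intestinal relative, had 0 UMIs in members of both libraries.

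Promoters of the primary granule list are shown because many of its genes share a stage and a compartment. Factors of the C/EBP family and PU.1 also act on such promoters. The list is wider than granule contents, as it holds Ms4a3, which encodes a membrane protein, and Lyz1, which had 0 UMIs in members. RefSeq promoters of GRCm38.p6, 250 bases before to 50 after the start, were found for 11 of the 16 genes, as 12 promoters. The PU.1 motif GAGGAAGT, on either strand, was in the promoters of 4 of the genes (Ctsc, Elane, Mpo and Prtn3). It was in those of 3.69% of all 27025 genes and in 3.20% of all 32851 promoters. The C/EBP motif TTGCNNAA, on either strand, was in the promoters of 3 of the listed genes (Cst7, Lyz1 and Ms4a3). It was in those of 12.2% of all genes and in 10.8% of all promoters. The 2 motifs share no position in the promoters printed, each of which holds 1 of them, in capitals. Elane is on the plus strand at chr10:79886062-79886361, with the motif starting 85 bases before the start. Prtn3 is on the plus strand at chr10:79879417-79879716, with the motif 95 bases before it. Mpo is on the plus strand at chr11:87793534-87793833, with the motif 224 bases before it. Ms4a3 is on the minus strand at chr19:11640802-11641101, with the C/EBP motif 41 bases after the start. A match describes the letters and is no measured binding site.
Elane: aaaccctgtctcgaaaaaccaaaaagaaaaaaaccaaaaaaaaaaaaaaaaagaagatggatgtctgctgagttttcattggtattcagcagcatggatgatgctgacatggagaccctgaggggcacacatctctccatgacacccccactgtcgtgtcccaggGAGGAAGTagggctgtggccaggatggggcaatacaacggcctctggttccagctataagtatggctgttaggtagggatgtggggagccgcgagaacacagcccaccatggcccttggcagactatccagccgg
Prtn3: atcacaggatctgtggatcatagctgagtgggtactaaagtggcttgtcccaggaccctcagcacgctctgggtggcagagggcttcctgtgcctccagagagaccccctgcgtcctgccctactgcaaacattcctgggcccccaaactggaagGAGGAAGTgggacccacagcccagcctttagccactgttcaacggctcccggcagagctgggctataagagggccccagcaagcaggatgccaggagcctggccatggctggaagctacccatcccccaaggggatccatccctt
Mpo: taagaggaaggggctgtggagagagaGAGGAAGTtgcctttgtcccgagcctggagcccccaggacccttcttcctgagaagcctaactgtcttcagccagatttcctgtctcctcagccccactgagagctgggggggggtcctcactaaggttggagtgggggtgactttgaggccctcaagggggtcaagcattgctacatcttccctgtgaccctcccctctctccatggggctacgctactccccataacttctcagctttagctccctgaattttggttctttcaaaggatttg
Ms4a3: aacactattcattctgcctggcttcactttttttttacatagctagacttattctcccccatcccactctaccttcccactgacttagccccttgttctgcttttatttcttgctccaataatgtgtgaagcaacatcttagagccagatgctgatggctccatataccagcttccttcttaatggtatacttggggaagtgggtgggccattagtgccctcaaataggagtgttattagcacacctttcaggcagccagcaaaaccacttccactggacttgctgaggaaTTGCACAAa

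Genes listed for the later granules were unevenly present. Of 21 genes of the secondary and tertiary granule list, 11 could be called in control, with 7 higher and 1 lower in members and a median log2 ratio of 1.72. In Tet2 KO, 7 of 12 were higher and 3 lower, with a median of 1.02. The genes that define a secondary granule were nearly absent. Ltf, lactoferrin, was at 0.132 and 0.0892 CPM in members, Camp, the cathelicidin, at 1.72 and 0.981, and Ngp, neutrophilic granule protein, at 0.792 and 1.78. Lcn2, a siderophore-binding lipocalin of the same granule, was at 32.4 and 32.3 CPM, against 15.4 and 43.6 in Ly86-positive cells. Hp, haptoglobin, was at 335 and 294 CPM against 392.3 and 484. The genes higher in members of both libraries were Pglyrp1, Wfdc21, S100a8, S100a9, Fcnb and Ltb4r1, a receptor for leukotriene B4. Ltf, Camp and Ngp were not among them. Calprotectin is cytosolic and Ltb4r1 encodes a receptor, so the counts and medians of the list are not of granule contents alone. Fcnb, ficolin B, a lectin of the granules, was at 22.7 and 48.6 CPM in members against 6.18 and 19.2.

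The share of cells with an S100a8 UMI, after thinning to 5000 UMIs, was 33.0% in control and 48.8% in Tet2 KO members. In Ly86-positive cells, whose branch makes less of it, it was 5.80% and 30.0%, and in cells low in both genes 12.9% and 34.8%, at the median depths before thinning given above. By this share, members stood above both groups in their own library, and all 3 groups stood higher in Tet2 KO. The summed level of S100a8 did not follow it in cells low in both genes, with 387 CPM in control, above members, and 366 in Tet2 KO. How much of the shares free RNA in the droplets gives was not tested.

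Transcription factors parted the branches mainly on the monocytic side. Of the monocytic and dendritic factors, 6 of 7 were lower in control members and 5 of 7 in Tet2 KO members, with 0 higher and medians of -1.78 and -0.95. Irf8, which drives the monocytic and dendritic fates, was at 18.5 and 48.6 CPM against 559 and 419, ratios of -4.92 (-5.17 to -4.68) and -3.11 (-3.24 to -2.98). Klf4, a monocyte factor, stood at -4.54 and -3.65, and Zeb2, a repressor needed in several myeloid cells, at -1.44 and -0.78. Of the granulocytic factors, 5 could be called in control, with 2 higher, and 4 in Tet2 KO, with 1 higher. Cebpe, which the rule used, is left out of these counts. Gfi1, a repressor that works with C/EBP factors in the granulocytic branch, was at 21.0 and 11.95 CPM in members against 2.41 and 2.89, ratios of 3.12 (2.49 to 3.82) and 2.05 (1.55 to 2.57). Its mean was below 10 CPM in Tet2 KO, so it was called in control alone. Cebpa, which opens the way to GMP, was at 21.8 and 20.9 CPM in members against 20.2 and 19.3, and Cebpd stood at -0.34 and -0.33. Neither of these C/EBP family genes was past 1.5-fold, nor was Xbp1, the factor of secretory cells, at -0.087 and -0.048.

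Part of the progenitor programme was higher in members than in Ly86-positive cells. Of the early progenitor genes, 7 of 14 were higher and 2 lower in control, and 5 of 11 higher and 2 lower in Tet2 KO, with medians of 0.61 and 0.57. Myb, a factor of dividing progenitors, was at 278 and 276 CPM against 114 and 103. Hoxa9, a homeobox factor of early progenitors, stood at 1.54 and 1.49, and Kit at 0.93 and 1.21. Cdk6, a cyclin-dependent kinase of early G1, stood at 0.56 and 0.65, so that it was past 1.5-fold in Tet2 KO alone. Ifitm3, an interferon-induced membrane protein that stem cells also make, went the other way at -1.07 and -1.50. The list summed to 1398 and 1326 CPM in members and to 1222 and 1575 in Ly86-positive cells. In cells low in both genes it summed to 2469 and 1869 CPM, above members in either library. Cd34 was at 87.9 and 60.2 CPM in Ly86-positive cells and at 167 and 91.3 in cells low in both genes. Members were thus below the latter in Cd34 too, in either library.

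The monocytic markers were lower in members almost throughout. Of 16 called in control, 15 were lower and 0 higher, and in Tet2 KO 14 of 16, with medians of -3.39 and -2.52. Their sum was 1366 and 2352 CPM in members against 6294 and 6344. Ly6c2, the Ly6C surface antigen, kept the most RNA in members, at 954 and 1760.1 CPM against 2918 and 3338. F13a1, a transglutaminase of monocytes, stood at -4.08 and -3.12, Ms4a6c, a tetraspan membrane protein, at -3.64 and -2.65, and Psap, the precursor of lysosomal saposins, at -2.80 and -2.42. The ratio of each of these was nearer to 0 in Tet2 KO than in control. Slpi, a secreted inhibitor of elastase, stood at -1.88 and -1.03. The granulocytic differentiation markers, as a list, had 12 of 16 higher in control and 10 of 15 in Tet2 KO, with 0 lower and medians of 1.08 and 0.93.

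Receptors and sensors were called in either direction, more often lower in members. Among receptors for growth factors and cytokines, 3 of 13 were higher and 6 lower in control members, and 2 and 8 of 13 in Tet2 KO, with medians of -0.51 and -0.79. Csf3r, the G-CSF receptor, stood at 0.72 and 0.56, so that it was past 1.5-fold in control alone, and Csf1r, the M-CSF receptor, at -3.81 and -2.26. Ifngr1, a chain of the interferon gamma receptor, was at 269 and 222 CPM against 149 and 137. All 6 MHC class II genes that could be called were lower in members of both libraries, with medians of -3.42 and -2.26. MHC class I and its peptide-loading genes had 2 of 11 higher and 0 lower in each library, and medians of -0.15 and -0.12. Of Toll-like receptors and their partners, 3 of 6 were lower and 1 higher in control and 3 lower and 1 higher of 5 in Tet2 KO, with Ly86 left out. Unc93b1, which carries endosomal Toll-like receptors, stood at -2.24 and -1.53.

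NADPH oxidase genes had 0 higher and 2 lower of 6 in each library. They were Cybb, the catalytic subunit, at -2.74 and -1.74, and the cytosolic Ncf4 at -0.88 and -0.84. Interferon-stimulated genes had 3 higher and 4 lower of 11 in control and 1 and 3 of 12 in Tet2 KO, so they showed no common direction. Immediate early genes, which respond to stimulation and to handling of cells, had 1 higher and 6 lower of 14 in control and 1 and 4 of 14 in Tet2 KO. Fos stood at -1.59 and -0.88 and Jun at -0.53 and -0.11. Chemokines and inflammatory cytokines gave 3 genes in control, with 1 lower, and 2 in Tet2 KO, with 0 called.

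Housekeeping lists showed little difference between the branches. The 45 ribosomal protein genes had 0 called in either library and medians of 0.0036 and 0.064. Ribosome biogenesis genes had 1 higher of 24 in control and 0 in Tet2 KO, with medians of 0.21 and -0.025. Nuclear genes of oxidative phosphorylation had 1 lower of 44 in each library, with medians of 0.0038 and -0.088, and the 13 mitochondrially encoded genes had 0 called. Glycolysis genes had 1 higher of 15 in each library, Gpi1, glucose-6-phosphate isomerase, at 0.67 and 0.64. DNA methylation genes had 1 higher of 8 in control and 0 in Tet2 KO. Genes of protein folding and secretion in the endoplasmic reticulum had 1 and 2 higher of 36, with medians of 0.24 and 0.12. Calr, calreticulin, a chaperone needed for myeloperoxidase, was at 1918 and 1755 CPM against 1197 and 1135.

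Many G2/M genes were lower in members than in Ly86-positive cells. Of 28 G2/M genes, 13 were lower in control and 10 in Tet2 KO, beside 8.18% and 6.83% of all genes, with 0 higher and medians of -0.55 and -0.51. Their sum was 2706 and 2974 CPM in members against 4066 and 4415. Of 28 S phase genes, 1 was lower in control and 3 in Tet2 KO, with medians of -0.22 and -0.27 and sums of 2732 and 2409 CPM against 2977 and 2864. These counts are near the shares of all genes, so S phase genes as a list are not read as lower. Mki67 encodes the proliferation antigen Ki-67 and Top2a the topoisomerase that untangles chromosomes before division. With cells thinned to 5000 UMIs, an Mki67 UMI was found in 18.6% (14.8% to 22.9%) of control and 18.9% (16.2% to 22.0%) of Tet2 KO members, against 35.2% and 34.5% of Ly86-positive cells and 24.3% and 26.6% of cells low in both genes. For Top2a these shares were 37.4% and 38.0% in members, 57.6% and 55.6% in Ly86-positive cells, and 47.1% and 49.1% in cells low in both. By these thinned shares, members were the lowest of the 3 groups for both genes in both libraries. In control, the intervals of members overlapped those of cells low in both genes, 19.7% to 29.3% for Mki67 and 41.5% to 52.7% for Top2a. Before thinning, at the unequal median depths given above, the Top2a share in control was 70.2% in members and 63.1% in cells low in both genes. No group of cells known to lack these genes was measured, so the share that free RNA gives is not known, and no phase was called.

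Members were then divided by their Cebpe UMIs, to see how they vary among themselves. Cd63 was higher and Irf8 mostly lower in members with more Cebpe, while primary granule genes were highest in the middle and lower at the top. The 5 groups, with 2, 3, 4 to 5, 6 to 9 and at least 10 Cebpe UMIs, held 77, 59, 91, 118 and 37 control cells and 237, 158, 188, 112 and 28 Tet2 KO cells. Median depth went up along them, from 17948 to 21838 UMIs in control and from 14312 to 16679 in Tet2 KO. The groups are by raw UMIs, so depth helps decide the group of a cell, and its part in what follows was not tested.

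Cd63 was at 841, 872, 990.0, 1072 and 1291 CPM along the 5 groups in control, and at 728, 912, 999, 1279 and 1668 in Tet2 KO, a steady increase in both. Irf8 was at 40.2 (30.3 to 52.3) CPM in the first group of control and 4.82 (1.31 to 12.3) in the last, and at 81.7 (72.5 to 91.7) and 29.7 (16.2 to 49.9) in Tet2 KO. In Tet2 KO it went down to 13.3 in the 4th group before the last, so the decrease there was not unbroken. Elane was at 10141 CPM in the first group of control, 11606 in the middle one and 8588 in the last, and at 10531, 11839 and 7637 in Tet2 KO. Gstm1 took the same course, with 650.0, 748 and 509 CPM in control and 579, 681 and 297 in Tet2 KO. The primary granule list as a whole was at 35865, 40029.8 and 31898 CPM in control and at 35232, 39053 and 29398 in Tet2 KO. The marker genes of the label thus do not follow Cebpe one for one within members.

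S100a8 was low at both ends, with 175, 339.9 and 98.9 CPM in the first, middle and last group of control and 963, 1768 and 112 in Tet2 KO. Monocytic markers summed to 1460.1 CPM in the first and 740.2 in the last group of control, and to 2847 and 936 in Tet2 KO. G2/M genes went the other way, from 2395 to 4089 CPM in control and from 2730.4 to 4186 in Tet2 KO, and S phase genes from 2998 to 2128 and from 2478 to 2161. The members with most Cebpe therefore had the least monocytic RNA and the most G2/M RNA of the 5 groups. They also held much of the Prg2 RNA, at 1592 CPM in control and 1354 in Tet2 KO, against 2.92 and 21.2 in the first group.

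Some of the pattern in the last group comes from the few cells rich in Prg2. Without cells of at least 5 Prg2 UMIs, which left 33 control and 21 Tet2 KO cells there, Elane was at 9056 and 8515 CPM, Gstm1 at 553 and 327, S100a8 at 106 and 130.3, Cd63 at 1146 and 1431 and G2/M genes at 3843 and 4272. Elane, Gstm1 and S100a8 were still lower than in the middle group, and Cd63 and G2/M genes still higher. That split was chosen after the data were seen.

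**Figure D3:**
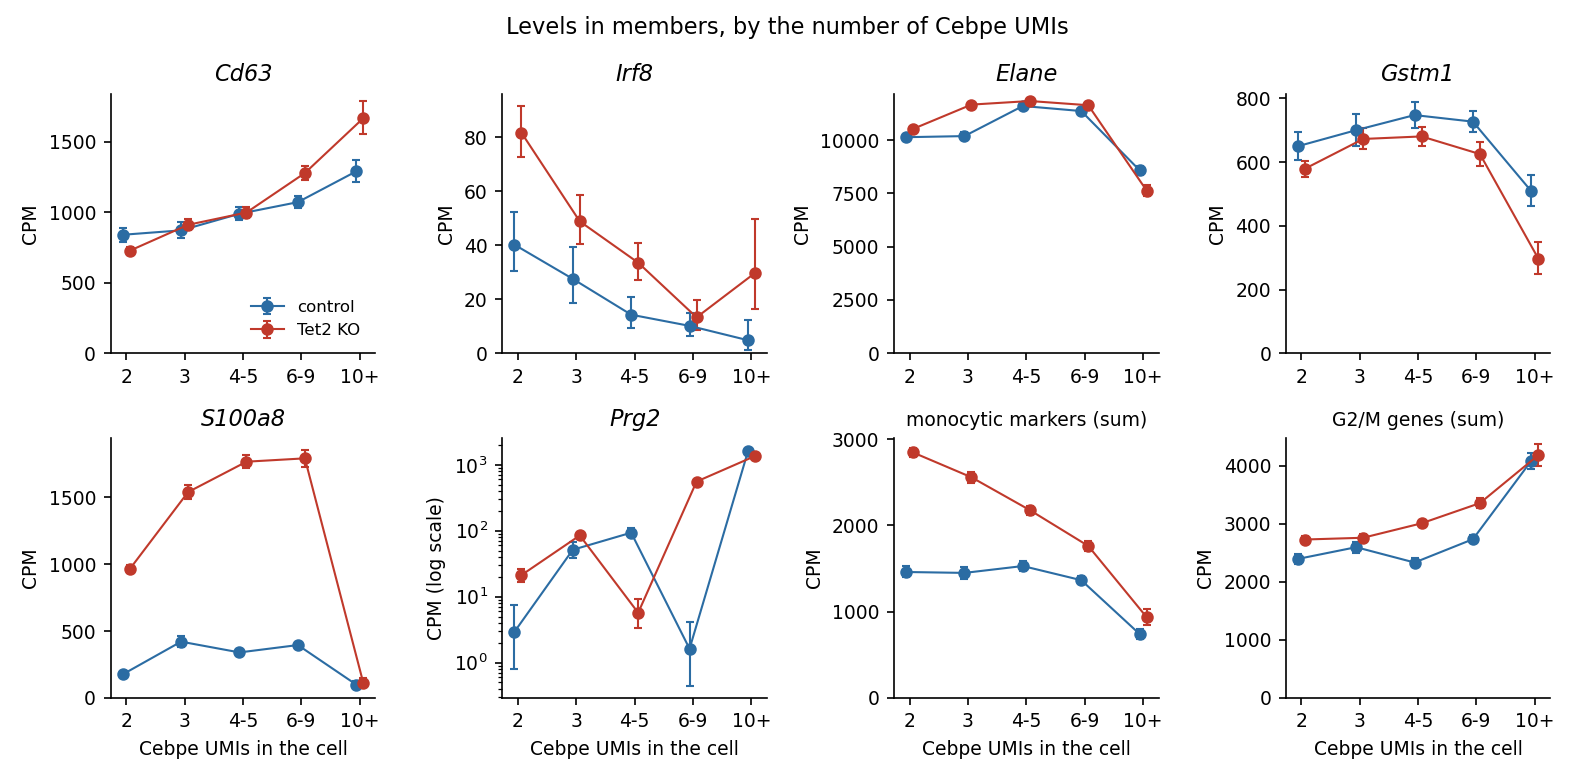
CPM of 6 genes and of the sums of the monocytic marker and G2/M lists in members with 2, 3, 4 to 5, 6 to 9 and at least 10 Cebpe UMIs (x axis), control in blue and Tet2 KO in red, with 95% Poisson intervals as bars and a log axis for Prg2. Cd63 goes up from 841 to 1291 CPM in control and from 728 to 1668 in Tet2 KO, while S100a8 is lowest in the last group in both libraries.

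Members also differed by whether they had a UMI of Cd34, an antigen of early progenitors that the gate requires. It was found in 236 control members (61.8%, 56.7% to 66.7%) and 389 Tet2 KO members (53.8%, 50.1% to 57.5%), with median depths of 20934 and 16398 UMIs against 18442 and 13926 in members without one. Depth thus favoured the former, and its part was not tested. Cebpe itself was alike, at 275 CPM with and 269.8 without a Cd34 UMI in control, and 252 and 269 in Tet2 KO. Elane was at 8724 CPM with and 14579 without in control, and at 9244 and 13888 in Tet2 KO. S100a8 was at 69.7 and 781 CPM in control, and at 396 and 2800.4 in Tet2 KO. A cell with Cd34 RNA can have no UMI of it by sampling. The members without a Cd34 UMI thus, as a group, carried more granule RNA at a like Cebpe level. Wfdc21 was at 93.4 and 469.8 CPM in control and 92.4 and 443 in Tet2 KO, Fcnb at 6.83 and 53.2 and at 13.3 and 97.9, and Gstm1 at 569 and 924 and at 468 and 837. Sox4, a factor of early progenitors, went with Cd34, at 51.0 CPM with and 17.3 without in control, and 49.6 and 28.2 in Tet2 KO. Irf8 was at 22.5 and 10.8 CPM in control but at 49.6 and 47.2 in Tet2 KO, so its levels with and without a Cd34 UMI were further apart in control.

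A few members carried nearly all the Prg2 RNA. Prg2 encodes the major basic protein of eosinophil granules, and it was the gene highest in members by the order over both libraries, at 205 and 173 CPM against 1.89 and 2.25. With at least 5 Prg2 UMIs there were 6 of 382 control members (1.57%, 0.579% to 3.39%) and 17 of 723 Tet2 KO members (2.35%, 1.38% to 3.74%), and they held 98.8% and 97.5% of the Prg2 UMIs of members. Their Prg2 UMIs ran from 5 to 705 per cell in control and from 8 to 602 in Tet2 KO. Their median Cebpe was 14.5 and 9 UMIs, against 5 and 3 in the remaining members, at lower median depths of 15078 and 9078 UMIs. Ly86 had 0 UMIs in these cells in control and 2 in Tet2 KO.

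These cells met the rule with another granule content. Prg3, a homologue of the major basic protein, was at 1149 and 1742 CPM in them against 11.2 and 16.5 in the remaining members, and Epx, eosinophil peroxidase, at 218 and 123 against 0.267 and 0.181. Cpa3, the carboxypeptidase of mast cells and basophils, was at 931 and 883 CPM against 79.2 and 115, and Fcer1a, a chain of the high-affinity IgE receptor, at 617 and 152 against 5.07 and 6.88. Genes of eosinophils and of mast cells or basophils were thus high in the summed counts of the same small set. Of its 6 control and 17 Tet2 KO cells, Epx had a UMI in 4 and 7, Fcer1a in 4 and 6, and Cpa3 in 6 and 16. Gstm1 was at 36.3 and 140.3 CPM in them against 698 and 629, Elane at 3252 and 4636 against 10813 and 11283, and S100a8 at 12.1 and 64.3 against 317 and 1419.9. Cd63 was at 2889.5 and 2941 CPM against 985 and 937. The label's markers Gstm1 and Elane were therefore low in them, while Cd63 was high. Its marker Ms4a3 was at 1415 and 1736 CPM against 2083 and 2119. Prss57 was at 278 (176 to 417) and 140 CPM against 365 and 302, so in control its interval included the level of the remaining members. Cpa3 stayed at 79.2 and 115 CPM in the remaining members, above the 4.40 and 1.09 of Ly86-positive cells, so its difference does not rest on these cells alone. What these cells are was not tested.

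Marker lists of other cell types were summed in members. Mature neutrophil markers were at 429 CPM in control and 1610.1 in Tet2 KO members, against 22052 and 16860.3 in all cells of the Lin-/CD11b+ sort. S100a8 gave most of it, 4 genes were higher and 1 lower than in Ly86-positive cells of 5 called in control, 3 and 1 of 5 in Tet2 KO, Ly6g and Mmp8 had 0 UMIs in control, and Stfa2l1 had 0 in both. Basophil and mast cell markers were at 334 and 366 CPM, below the 1209.7 and 596 of all other cells of the GMP sort. Mcpt8, a basophil protease, had most UMIs of that list in control and Cpa3 in Tet2 KO, 3 of 4 genes were higher and 1 lower than in Ly86-positive cells in control and 3 of 3 higher in Tet2 KO, and Cma1 had 0 UMIs in control. Eosinophil markers were at 234 and 224 CPM, of which Prg2 gave 205 and 173, against 6.79 and 7.69 in all other cells of the sort. Both of the genes of the list that could be called were higher in either library.

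Markers of blood lineages outside the granulocytic branch were low or rested on genes with wider use. Stem cell markers were at 20.3 and 12.8 CPM, with Meis1 the most abundant and 0 genes at the level needed for a call. Megakaryocyte and erythroid markers were at 131 and 229 CPM, of which Apoe, a lipid carrier, gave 61.0 and 164, with 2 of 3 higher in control and 2 of 3 in Tet2 KO, and 0 UMIs of Car1. Haemoglobin genes were at 0.924 and 0.357 CPM, Hbb-bt having 2 UMIs in control and 4 in Tet2 KO. Monocyte and macrophage markers were at 72.8 and 97.9 CPM, with F13a1 the most abundant, 1 higher and 4 lower of 5 in control, 3 lower of 4 in Tet2 KO, and 0 UMIs of C1qa, C1qb and C1qc. Dendritic cell markers were at 159 and 189.8 CPM, of which Bst2, an interferon-induced antigen, gave 141 and 169, with 2 and 1 lower of 3 and 0 UMIs of Siglech, Ccr9, Cd209a and Itgax. B and plasma cell markers were at 60.3 and 89.2 CPM, with Cd79b in front in control and Ighm in Tet2 KO, 1 lower of 2 in each library, and 0 UMIs of Cd79a, Pax5 and Ms4a1. T, NK and innate lymphoid markers were at 1509 and 1479.7 CPM, but Nkg7, a cytotoxic granule protein that granulocytic progenitors also make, gave 1508 and 1473 of it, it was the 1 gene of the list that could be called, and it was higher in members. Cd3e, Cd3g, Trbc1, Trbc2, Gzma, Ncr1, Il7r and Cd8a had 0 UMIs in members of both libraries.

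Tet2 KO members were compared with control members for the question of what differs with genotype in this state. Few genes were past 1.5-fold. Calprotectin, Irf8 and several monocytic genes stood higher in Tet2 KO members, and Hoxa7 and Hoxa9 lower. These are differences between 2 samples.

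Of 5968 genes, 54 were higher (0.905%) and 68 lower (1.14%) in Tet2 KO members, and the median log2 ratio over all genes was -0.037. With TMM factors, which rescale the totals, 62 were higher and 52 lower and the median was 0.0096, so which direction holds more genes depends on the scaling. In the cells of the Lin-/CD11b+ sort chosen by the rule with Mpo, 299 of 5989 genes were higher (4.99%) and 167 lower (2.79%) in Tet2 KO. These groups hold 2404471 and 2312878 UMIs, fewer than members. With every cell of the GMP sort thinned to 5000 UMIs, which also leaves fewer members, 1006 genes were past 1.5-fold in place of 122, so the counts of the groups are not compared. Called in members and in that sort were 33 higher genes, which are 61.1% of the 54 and 11.04% of the 299, and 18 lower ones, 26.5% of the 68 and 10.8% of the 167. Of the 68, 1 was past 1.5-fold the other way there. Those cells come from separate libraries of the same 2 mice, so they do not separate genotype from mouse. The log2 ratios that follow are of CPM, Tet2 KO over control, in members, in Ly86-positive cells of the GMP sort and in the cells of the Lin-/CD11b+ sort, in that order, and the Ly86-positive cells share the libraries of the members.

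Rpgrip1, a ciliary protein of photoreceptors, had the highest ratio, at 5.25 (4.12 to 6.71), 5.56 and 4.68, with 0.792 CPM in control and 30.2 in Tet2 KO members. S100a8 was at 2.16 (2.10 to 2.22), 3.63 and 2.00, and S100a9 at 1.76 (1.58 to 1.95), 1.96 and 1.99. Both calprotectin genes, neighbours on chromosome 3 (S100a8 at chr3:90668978-90670035, S100a9 at chr3:90692632-90695721), were thus higher in these 3 groups of cells. In cells low in both genes their summed levels were not higher, with S100a8 at 387 CPM in control and 366 in Tet2 KO and S100a9 at 191 and 15.1. The share of those cells with an S100a8 UMI after thinning was higher in Tet2 KO, as given above. The 3 members with most UMIs of S100a8 held 13.1% of them in control and 7.18% in Tet2 KO, and those of S100a9 24.9% and 25.4%. Fcnb was at 1.10 (0.85 to 1.35), 1.63 and 1.59, with shares of 20.9% and 13.8% in its 3 highest cells.

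Markers of later stages moved with these ratios in the Lin-/CD11b+ cells chosen by the rule with Mpo. Mature neutrophil markers summed there to 4289 CPM in control and 16668 in Tet2 KO, with 3 higher and 0 lower of 6, 0 UMIs of Il1b in both and of Stfa2l1 in control. S100a8, the most abundant, gave 2768 and 11043 CPM of the sums and S100a9 1365 and 5438. Secondary and tertiary granule genes, with S100a8 again the most abundant, summed to 7628 and 22539 CPM, with 12 higher and 0 lower of 18, and eosinophil markers to 37.0 and 642. The 2 groups of that sort thus differ in these lists too, and their part in the ratios was not tested. In cells low in both genes of the GMP sort, mature neutrophil markers summed to 639 CPM in control and 460.0 in Tet2 KO.

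Irf8 was at 1.39 (1.12 to 1.67) in members, -0.41 (-0.47 to -0.36) in Ly86-positive cells and 1.22 (0.73 to 1.72) in the Lin-/CD11b+ sort. Members had 18.5 CPM of it in control and 48.6 in Tet2 KO, and Ly86-positive cells 559 and 419. In cells low in both genes it was at 134 CPM in control and 175 in Tet2 KO. The Tet2 KO level was thus above that of control in 3 of these 4 groups and below it in Ly86-positive cells, and the difference between the groups was not tested. By number of Cebpe UMIs, Irf8 was higher in Tet2 KO in each of the 5 groups, from 81.7 against 40.2 CPM in the first to 13.3 (8.52 to 19.8) against 10.1 (6.56 to 15.0) in the 4th, where the intervals overlap. Without the cells rich in Prg2, the last group had 5.26 CPM in control and 35.8 in Tet2 KO. The 3 highest cells held 17.1% of its UMIs in control and 6.06% in Tet2 KO.

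Other genes, most of them of the monocytic branch, were higher in Tet2 KO members as well. Ms4a6c was at 1.07 (0.88 to 1.25), 0.073 and 0.87, and Ly6c2 at 0.88 (0.85 to 0.92), 0.19 and 0.42. Cybb was at 1.37 (0.93 to 1.83), 0.37 and 1.67, and Rassf4, a Ras association domain protein, at 1.18 (0.73 to 1.66), 0.30 and 1.38. F13a1 was at 0.76 (0.50 to 1.02), -0.20 and -0.19, and in cells low in both genes it went from 83.4 to 119 CPM. As a list, 4 of 8 monocytic markers were higher in Tet2 KO members and 0 lower, with a median of 0.54 beside -0.037 over all genes. In cells low in both genes the list summed to 1756 CPM in control and 3401 in Tet2 KO, with Ly6c2 at 861 and 2153, so the higher level was not particular to members. In members the sum was higher in Tet2 KO in each group by Cebpe UMIs, from 2847 against 1460.1 CPM in the first to 936 against 740.2 in the last. In the monocytic and dendritic factors, 1 of 4 was higher, which is Irf8. The whole monocyte and macrophage marker list was at 72.8 CPM in control and 97.9 in Tet2 KO members, and its part in these differences was not tested. Median depth was lower in Tet2 KO members, and so was median Cebpe, and the part of either was not tested.

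**Figure D4:**
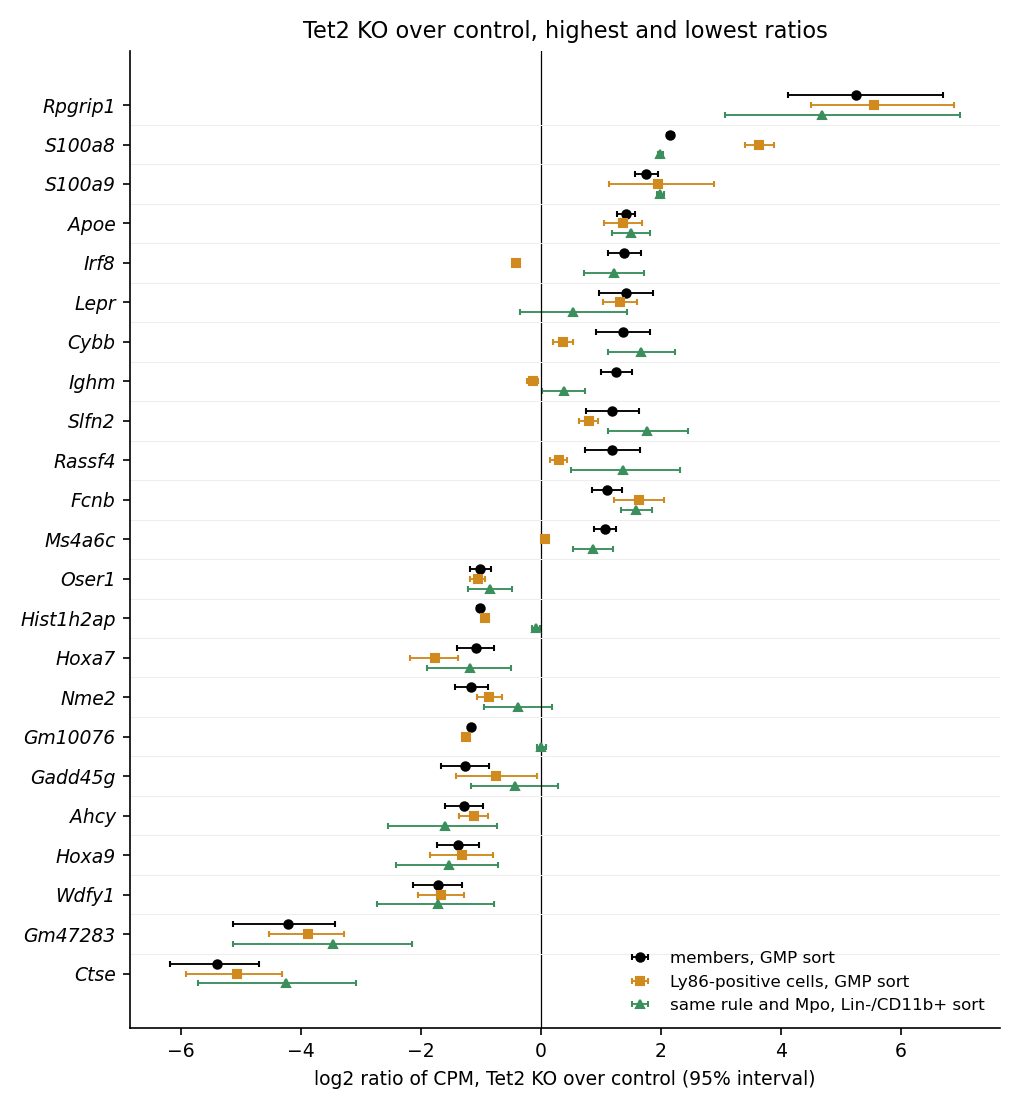
Log2 ratio of CPM, Tet2 KO over control, for genes among the 12 with the highest and the 12 with the lowest ratio in members (black circles), with the same ratio in Ly86-positive cells (orange squares) and in Lin-/CD11b+ cells by the same rule with Mpo (green triangles), and 95% intervals as bars. Irf8 stands at 1.39 in members and -0.41 in Ly86-positive cells, while Ctse and Gm47283 are low in all 3 groups.

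The remaining genes at the upper end had mixed roles. Apoe was at 1.43 (1.28 to 1.58), 1.37 and 1.4998, but in cells low in both genes it was at 360.0 CPM in control and 201 in Tet2 KO. Lepr, the leptin receptor, was at 1.41 (0.97 to 1.88), 1.32 and 0.54. Slfn2, a regulator of quiescence in immune cells, was at 1.18 (0.75 to 1.63), 0.80 and 1.76. Ighm, the immunoglobulin mu chain, was at 1.26 (1.01 to 1.52), -0.13 and 0.38, with 21.8 and 52.2 CPM in members, and Cd79a, Pax5 and Ms4a1 were at 0 as given above. Ly86-positive cells had 189.9 and 173 CPM of it, so Ighm RNA was not particular to members.

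Genes of the interferon response gave 1 of 11 higher, and the list had a median of 0.25. In Ly86-positive cells 3 of 11 were higher and 0 lower, with a median of 0.26. In the Lin-/CD11b+ cells 8 of 13 were higher and 0 lower, with a median of 0.67, beside 4.99% of all genes higher there. In MHC class I, 1 of 11 was higher, the nonclassical H2-Q7 at 0.84 (0.71 to 0.96), 1.01 and 1.38, and the list median was 0.13. MHC class II genes had 0 called of 3 in members. In Ly86-positive cells 4 of 6 were lower and 0 higher, with a median of -0.91. In the Lin-/CD11b+ cells 1 of 5 was lower and 0 higher, with a median of -0.058. In the immediate early list, 2 of 13 were lower, Ier3, a regulator of cell death, at -1.02 (-1.28 to -0.77), -0.85 and -0.17, and the factor Egr1 at -0.64 (-1.02 to -0.26), -0.97 and -0.29. The list had a median of -0.44 in members. In Ly86-positive cells, where 49 of 6068 genes were higher (0.808%) and 73 lower (1.2%), 8 of 14 of the list were lower and 0 higher, with a median of -0.63, and in the Lin-/CD11b+ sort 5 of 15 were higher and 0 lower, with a median of 0.43. By its medians the list thus stood lower in Tet2 KO in these groups of the GMP libraries. In the cells of the other sort by the rule with Mpo it stood higher, with sums of 962 and 1022 CPM, control first. Over all cells of that sort, the list summed to 2304 CPM in control and 1759 in Tet2 KO.

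At the lower end, Ctse, the aspartic protease cathepsin E, was at -5.39 (-6.18 to -4.69), -5.06 and -4.24, with 63.5 CPM in control and 1.52 in Tet2 KO members. Gm47283, annotated at chrY:90784738-90816464, was at -4.22 (-5.12 to -3.43), -3.88 and -3.45. Xist, the RNA of the inactive X chromosome, was at 925 CPM in control and 1067 in Tet2 KO members, and Kdm5d, of the Y chromosome, had 1 UMI in control and 0 in Tet2 KO members, so both libraries read as female. Wdfy1, an adaptor of endosomal signalling, was at -1.72 (-2.14 to -1.31), -1.66 and -1.70. These 3 genes were lower in Tet2 KO in all 3 groups of cells.

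Early progenitor genes had 3 lower of 14 and a median of -0.27. Hoxa9 was at -1.37 (-1.73 to -1.02), -1.32 and -1.53, from 24.7 to 9.54 CPM in members, and Hoxa7 at -1.08 (-1.39 to -0.77), -1.77 and -1.17, from 28.1 to 13.3. The 2 homeobox genes are neighbours on chromosome 6 (chr6:52214491-52221854 and chr6:52223100-52231089), and both were lower in each of these groups. Egfl7, a secreted protein of endothelial and progenitor cells, was the remaining 1, at -0.76 (-1.05 to -0.47), -0.26 and -0.80. Ahcy, the hydrolase that clears the by-product of methylation reactions, was at -1.27 (-1.59 to -0.96), -1.11 and -1.59, and Oser1, a protein that responds to oxidative stress, at -1.003 (-1.18 to -0.83), -1.05 and -0.84.

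Some low ratios were not matched in the other sort. The noncoding RNA Gm10076 was at -1.15 (-1.19 to -1.11), -1.25 and 0.0085, and the histone gene Hist1h2ap at -1.01 (-1.06 to -0.97), -0.93 and -0.072. Nme2, a nucleoside diphosphate kinase, was at -1.16 (-1.43 to -0.89), -0.85 and -0.37, and Gadd45g, a stress response gene, at -1.25 (-1.66 to -0.85), -0.74 and -0.43. In the GMP sort these 4 genes had negative ratios in both groups of cells, which share their libraries, while in the other sort none was past 1.5-fold.

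The granulocytic lists are given beside the 0.905% of all genes that were higher and the 1.14% that were lower. Primary granule genes had 0 called of 13, which is near those shares, and a median of -0.077, and their sum was 37708 CPM in control and 37093 in Tet2 KO. In the granulocytic differentiation markers, 1 was higher, Fcnb, and 1 lower, Gfi1, of 16. Gfi1 was at -0.81 (-1.16 to -0.47), 0.26 and 0.056, from 21.0 to 11.95 CPM in members, and it was the 1 called of 6 granulocytic factors. Secondary and tertiary granule genes had 5 higher and 1 lower of 12, with a median of 0.057 and sums of 2038 CPM in control and 3256 in Tet2 KO. S100a8, whose protein is cytosolic, carried most of the difference between the sums, with 313 and 1399 CPM. Ltf, Camp and Ngp were near 0 as given above, so the higher sum is not read as one of granule contents. The higher ones were S100a8, S100a9, Fcnb, Cybb and Anxa1, an annexin that restrains inflammation, at 0.76 (0.66 to 0.86). The lower one was Lrg1, a leucine-rich glycoprotein, at -1.03 (-1.47 to -0.59), 2.57 (1.45 to 3.94) and 0.49 (-0.051 to 1.04), which thus had positive ratios in the other groups.

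The other lists had few calls between the genotypes, as had all genes. S phase, G2/M, ribosomal protein, ribosome biogenesis, oxidative phosphorylation, mitochondrially encoded, glycolysis, endoplasmic reticulum, DNA methylation, receptor, chemokine and Toll-like receptor genes had 0. The medians were -0.20 for glycolysis, -0.16 for S phase, 0.086 for G2/M and 0.082 for oxidative phosphorylation. In the NADPH oxidase list, 1 of 6 was higher, which is Cybb. In mature neutrophil markers, 2 of 5 were higher, S100a8 and S100a9, and Ly6g, Mmp8 and Stfa2l1 were each below 1 CPM in both libraries. The monocyte and macrophage, B cell, and megakaryocyte and erythroid lists each had 1 gene higher, which were F13a1, Ighm and Apoe, and the last also had 1 lower, Car2. Basophil, dendritic and T and NK lists had 0 called. In eosinophil markers, 1 of 2 was higher, Prg3 at 0.86 (0.61 to 1.11), of whose UMIs the 3 highest cells held 38.0% in control and 21.0% in Tet2 KO. Car2 encodes a carbonic anhydrase and was at -0.68 (-0.97 to -0.40), 0.75 and -0.87.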

How the data were processed

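Raw UMI counts per gene and cell were deposited by the authors, who mapped reads with Cell Ranger 3.1.0 (mm10 per the labels) and kept cells in Seurat by genes, UMIs and mitochondrial share; 116 and 180 cells of the GMP libraries are at 5% mitochondrial counts or more. The annotation of the counts is not stated. The kit is v2 in the labels and v3.1 in the series design. Cells were taken as deposited, with barcodes, UMI totals and gene numbers equal in matrix and cell table for 8969 cells.

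UMIs were summed per group of cells and scaled to CPM. Named genes were the markers, Ly86 and Tet2, the 4 genes with most UMIs of each list, the 12 highest and 12 lowest ratios of each comparison, sex-linked and haemoglobin genes, and genes of the lists past 1.5-fold between genotypes, with those that a statement needed printed. Camp, Cd34, Cebpa, Csf1r, Cst7, Ctsc, Fcgr3, Itgam, Kit, Klf4, Lcn2, Ltb4r1, Ltf, Ly6a, Lyz1, Lyz2, Ngp, Serpinb1a, Sox4, Srgn, Xpo6 and the genes named at 0 UMIs fall outside that rule and were chosen after their values were seen. Mki67 also falls outside that rule. Some genes that the rule or the lists take are not reported here. Members and lists were chosen with earlier results of these data known. No doublet caller was run. Alternatives were TMM factors, other offsets, filters and thresholds, the mean over cells, cells thinned to 5000 UMIs with seed 1, and cells left out by mitochondrial share or as the 5% of each library with most UMIs. Leaving out members with at least 5 Prg2 UMIs was chosen after seeing the data.

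The computation was tested on simulated data. Python 3.11.15, numpy 2.4.6, scipy 1.17.1, pandas 2.3.3, matplotlib 3.10.9, R 4.3.3 and edgeR 4.0.16 were used. Promoters are of RefSeq (GRCm38.p6) and gene positions of GENCODE vM21, matched by symbol.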

Additional observations from a re-analysis of the deposited data

Results flagged for a closer look

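Xpo6, a nuclear export receptor for actin, stood apart because its ratio was past 1.5-fold in opposite directions in the 2 sorts. On the log2 scale the Tet2 KO level over that of control was -0.66 (-1.01 to -0.31) in members, with 12.1 CPM in Tet2 KO and 19.1 in control. In the cells of the Lin-/CD11b+ sort by the same rule with Mpo it was 0.91 (0.19 to 1.66), with 20.3 and 10.8 CPM. The difference was not tested.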

How the results depend on the processing

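The share of members moved with the threshold. In control it was 37.4% with at least 1 Cebpe UMI, 24.2% with at least 3 and 11.8% with cells thinned to 5000 UMIs. In Tet2 KO it was 38.5%, 17.9% and 10.8%, and 23.9% with no Ly86 UMI allowed. A stricter count takes fewer cells by construction.

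Counts of genes past 1.5-fold moved more than 1.5 times with offset, filter and thinning. For members against Ly86-positive cells in control, 872 in the report, they were 524 with an offset of 10 CPM, 1750 with a filter of 2 CPM, 2513 with no filter and 1749 with thinned cells. In Tet2 KO, against 690, they were 434, 1470, 2037 and 1341. For Tet2 KO against control members, against 122, they were 51, 424, 813 and 1006, and 466 in the Lin-/CD11b+ sort. A lower filter tests more genes with few counts, and thinning leaves fewer counts per gene. In the Lin-/CD11b+ sort, some genes named as lower or higher in Tet2 KO members changed sign. On the ratio of CPM + 1, Gm10076 was at 0.0085 there, Lrg1 at 0.47, Gfi1 at 0.053 and F13a1 at -0.18, and Xpo6 changed sign as given above. The cause was not tested.

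Over all alternatives, 26 of 46 main values held within their interval or within 1.5 times the count, 1084 of 1270 values of named genes held and 182 moved, and 764 of 950 list medians stayed within 0.1. Members and Ly86-positive cells were compared within each library, with 1 value per library and no paired test. Between the genotypes no pairing was possible because each has 1 library per sort. Depth limits the genes near 10 CPM, where a few UMIs decide a call.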
